A study of Mus musculus with 4 samples.

Results

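The genes described here are 9 members of the bone morphogenetic protein (BMP) pathway in mouse embryonic stem cells, taken by symbol from the 25170 genes of each deposited table: the ligands Bmp4 and Bmp7, the receptor Bmpr1a, the SMAD proteins Smad1, Smad5 and Smad6, and the target genes Id1, Id2 and Id3. The members were chosen by the differences of their FPKM values between these libraries, so those levels and differences are a description, and no test was made on them. Messenger RNA was sequenced in 4 libraries, 1 per group. SO was a wild-type culture given an inhibitor treatment that the labels call SO, Ldha_KO carried a knockout of Ldha, Ldhb_KO carried a knockout of Ldhb, and WT was the wild-type E14 line under normal culture. All 4 groups were grown on gelatin in medium with 15% serum and leukaemia inhibitory factor (LIF). The sources used here do not give the agent behind the name SO, its dose, its duration or whether a knockout line was 1 clone. Levels are FPKM (fragments scaled by gene length and library depth), and a difference is that of log2(FPKM + 1) between 2 libraries. A gene was called higher or lower at a difference of 1, which is 2-fold, among the 13142 genes that reached 1 FPKM in at least 1 library. With 1 library per group no value has an error or a p-value, and each difference compares libraries, not conditions.

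BMP ligands bind a pair of receptor types at the cell surface, and the active receptor phosphorylates Smad1, Smad5 and Smad9, which join Smad4, enter the nucleus and switch on target genes. The Id genes are the best known of these targets in embryonic stem cells. Id proteins have a helix-loop-helix domain but no DNA-binding region, and they hold back the E proteins and other bHLH factors that drive differentiation. In mouse embryonic stem cells grown in serum with LIF, BMP signals and the Id genes are known to help keep the cells from turning towards the neural lineage. Smad6 and Smad7 are inhibitory SMADs that are themselves induced by the pathway and feed back on it.

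The sequences below are the 250 bases before the RefSeq start of Bmp4 and Id2, the members past the 2-fold rule in at least 1 comparison, and of Id3, an Id gene that stayed inside the rule in every comparison. They come from RefSeq with build GRCm38.p6, which matched 7 of the 9 members (Id1 and Bmp7 were not matched). The GENCODE M21 genes Id2 and Id3 start further upstream than in RefSeq, so their windows lie inside the GENCODE gene bounds given further on, while the 2 annotations share the start of Bmp4. Capitals mark GGCGCC and GGAGCC, GC-rich elements of the kind bound by Smad1 and Smad5, on either strand, so that GGCTCC is GGAGCC read on the other strand.
Bmp4, chr14:46390670-46390919, minus strand: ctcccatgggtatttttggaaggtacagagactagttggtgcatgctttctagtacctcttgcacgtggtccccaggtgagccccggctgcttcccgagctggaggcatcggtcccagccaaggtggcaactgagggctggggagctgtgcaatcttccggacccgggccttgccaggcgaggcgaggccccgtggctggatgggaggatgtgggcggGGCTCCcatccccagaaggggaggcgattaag
Id2, chr12:25096093-25096342, minus strand: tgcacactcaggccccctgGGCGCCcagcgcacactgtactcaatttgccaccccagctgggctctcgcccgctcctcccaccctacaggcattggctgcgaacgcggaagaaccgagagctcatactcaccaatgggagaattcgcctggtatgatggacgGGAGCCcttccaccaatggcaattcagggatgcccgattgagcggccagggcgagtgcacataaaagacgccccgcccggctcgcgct
Id3, chr4:136143572-136143821, plus strand: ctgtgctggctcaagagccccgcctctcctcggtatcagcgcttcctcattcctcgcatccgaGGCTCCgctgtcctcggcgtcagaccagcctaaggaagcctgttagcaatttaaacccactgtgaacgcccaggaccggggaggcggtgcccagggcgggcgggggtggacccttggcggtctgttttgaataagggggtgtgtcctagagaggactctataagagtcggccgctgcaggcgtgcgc
The Id2 window held GGCGCC starting 231 bases before the start and GGAGCC starting 88 bases before it. The Bmp4 window held the reverse complement of GGAGCC starting 32 bases before the start, and the Id3 window held it starting 187 bases before. Of the 9 windows of the 7 matched members, GGCGCC lay in 3 (of Bmpr1a, Id2 and Smad5) and GGAGCC in 5 (of Bmp4, Id2, Id3, Smad5 and Smad6). Over all 32851 promoter windows of the same length, 9.59% held GGCGCC and 26.0% held GGAGCC on either strand. The short SMAD element GTCT lay in 7 of the 9 and in 82.9% of all windows, also on either strand. Every window of a member was GC-rich, at 60% to 78.8% G and C against a median of 52.4% over all windows, and the part of this in the matches to GC-rich letters was not tested. These matches are letters in a window and were not measured as binding. Smad5 had 3 windows, each other member 1.

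The libraries were checked against their labels first. Ldha was at 1711 FPKM in SO, 154 in Ldha_KO, 2237 in Ldhb_KO and 1774 in WT, and Ldhb was at 139, 158, 5.74 and 76.5 in the same order. The sources used here give no depth in reads. From the size of 1 read among low values, the library sizes behind the scaling of SO, Ldha_KO and Ldhb_KO were 1.05, 0.995 and 1.05 times that of WT. Whether these sizes are plain read totals is not known. The same step separated the libraries. SO and WT shared the value of 1 read to within 0.0169% (width of the middle 80% of ratios among genes with equal reads), the knockouts shared it to within 0.225%, and the 4 pairs of a knockout with SO or WT to within 0.460% to 0.679%. The labels name no batch, and SO and WT are called the unedited libraries below. The 10 stem cell markers summed to 6781 FPKM in SO, 6079 in Ldha_KO, 6838 in Ldhb_KO and 6966 in WT, and none was called in a comparison with WT.

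Bmp4 was the member with the largest difference in the deposited values. It was at 54.7 FPKM in SO, 20.3 in Ldha_KO, 20.8 in Ldhb_KO and 58.1 in WT. Both knockouts lay low and close together, and both unedited libraries lay high and close together. The level in Ldha_KO was 0.349 of WT, a difference of -1.47, and that in Ldhb_KO was 0.358 of WT, a difference of -1.44, and both were called lower. In all, 1.06% of genes were called lower in Ldha_KO and 1.09% in Ldhb_KO, and only 28 and 22 of the 13142 genes had a lower difference than Bmp4. In SO the difference was -0.09. Between Ldha_KO and Ldhb_KO it was -0.03. Bmp4 thus differed across the split in the value of 1 read and hardly within either side of it, and the knockout and whatever sets those libraries apart cannot be told apart. In bulk samples, fewer cells that make Bmp4 and less Bmp4 RNA per cell cannot be told apart either. Bmp4 lies on chr14:46383520-46390669 of GRCm38, minus strand, with 4 annotated transcripts. Gm15217, which overlaps it on the other strand, was listed at 0 in SO and at 0.370, 0.174 and 0.182 FPKM in Ldha_KO, Ldhb_KO and WT. Gm15222 also overlaps it on the other strand and was not among the listed genes, so its level is unknown.

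Bmp7, a ligand of another BMP subgroup, was low in every library. It was at 2.14 FPKM in SO, 1.59 in Ldha_KO, 2.31 in Ldhb_KO and 0.848 in WT. WT was the lowest of the 4 and lay below the filter of 1, so Bmp7 was kept only through the other libraries. The ratios to WT were 2.52, 1.88 and 2.73, but on the log2(FPKM + 1) scale, which understates low genes, the differences were 0.77 in SO, 0.49 in Ldha_KO and 0.84 in Ldhb_KO. None of these was called. With a pseudocount of 0.1 the differences in SO and Ldhb_KO were 1.24 and 1.35, which passed the rule. Bmp4 made up 96.2% of the sum of both ligands in SO, 92.7% in Ldha_KO, 89.99% in Ldhb_KO and 98.6% in WT. That sum was 56.8 FPKM in SO, 21.9 in Ldha_KO, 23.1 in Ldhb_KO and 59.0 in WT, so it followed Bmp4.

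Bmpr1a, a type I receptor for BMP ligands, was at 24.8 FPKM in SO, 26.5 in Ldha_KO, 20.6 in Ldhb_KO and 26.5 in WT. It varied little, with the highest library at 1.29 times the lowest, and Ldhb_KO was lowest. Its differences from WT were -0.09 in SO, 0.00 in Ldha_KO and -0.35 in Ldhb_KO.

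Smad1 and Smad5 are the effector SMADs that the receptor phosphorylates. Smad1 was at 12.5 FPKM in SO, 16.4 in Ldha_KO, 14.6 in Ldhb_KO and 10.9 in WT. The knockouts were the highest and WT the lowest, with differences from WT of 0.18 in SO, 0.55 in Ldha_KO and 0.39 in Ldhb_KO. Smad5 was at 9.55 FPKM in SO, 11.9 in Ldha_KO, 9.28 in Ldhb_KO and 9.93 in WT, and the highest was 1.28 times the lowest. Its differences from WT were -0.05, 0.24 and -0.09. The ratio of Smad1 to Smad5, whose FPKM values are per length, was 1.31 in SO, 1.38 in Ldha_KO, 1.58 in Ldhb_KO and 1.10 in WT, so Smad1 was the higher of the pair in each library.

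Smad6, the inhibitory SMAD among the members, was at 3.90 FPKM in SO, 2.89 in Ldha_KO, 5.25 in Ldhb_KO and 2.93 in WT. Ldhb_KO was the highest, and Ldha_KO and WT were nearly equal. The differences from WT were 0.32 in SO, -0.02 in Ldha_KO and 0.67 in Ldhb_KO. Between the knockouts the difference was -0.69, and 726 of the 13142 genes had a lower one.

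**Figure D1:**
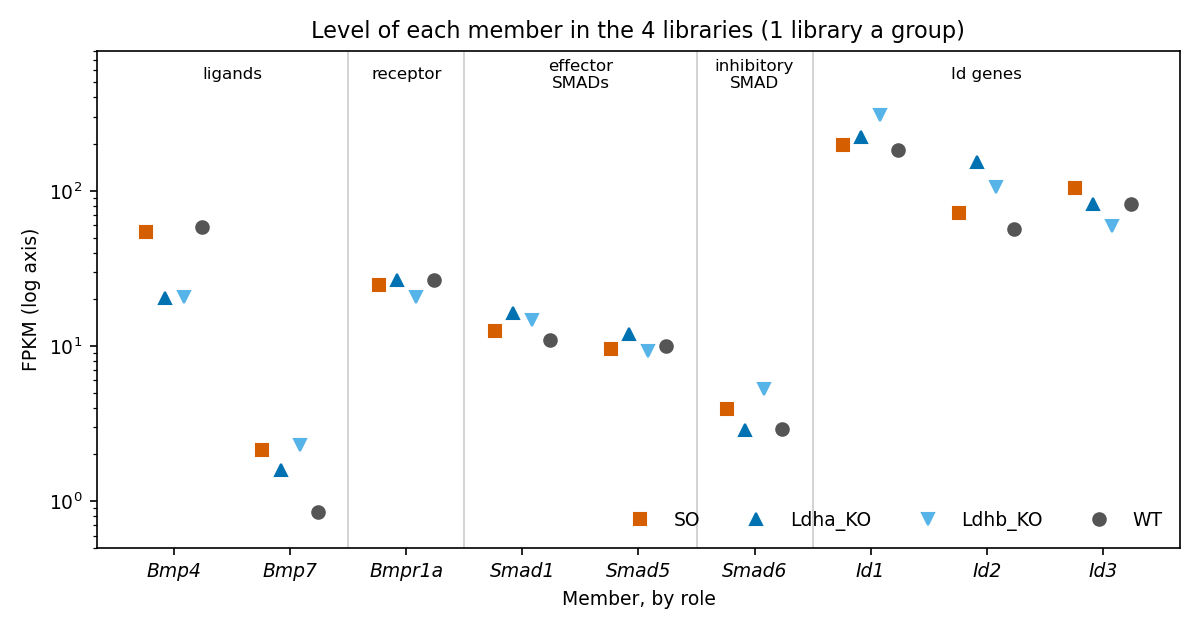
FPKM of the 9 members on a log axis in SO, Ldha_KO, Ldhb_KO and WT, each point 1 library, with members ordered by role. Bmp4 sits at 20.3 and 20.8 in the knockouts, against 54.7 in SO and 58.1 in WT, while Id2 sits highest in Ldha_KO at 153.

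The Id genes did not move as 1 group. Id1 was at 197 FPKM in SO, 223 in Ldha_KO, 308 in Ldhb_KO and 182 in WT. Ldhb_KO stood highest, 1.38 times the next library. The differences of Id1 from WT were 0.11 in SO, 0.29 in Ldha_KO and 0.75 in Ldhb_KO, none of them called. Id1 lies on chr2:152736251-152737410 of GRCm38, plus strand.

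Id2 was at 72.3 FPKM in SO, 153 in Ldha_KO, 106 in Ldhb_KO and 57.0 in WT. The order was Ldha_KO, Ldhb_KO, SO and WT, each at 1.27 to 1.47 times the next. In Ldha_KO it was 2.68-fold above WT, a difference of 1.41, and was called higher, as were 2.65% of all genes. In Ldhb_KO its difference was 0.88, which became 1.002 once each library was scaled to the sum of WT and 1.01 with median ratio scaling, and both of these passed the rule. In SO the difference was 0.34, and between Ldha_KO and Ldhb_KO it was 0.52. Id2 lies on chr12:25093799-25097140, minus strand.

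Id3 was at 105 FPKM in SO, 82.0 in Ldha_KO, 59.8 in Ldhb_KO and 81.8 in WT. SO was the highest, Ldhb_KO the lowest, and Ldha_KO and WT were nearly equal. The differences from WT were 0.35 in SO, 0.00 in Ldha_KO and -0.45 in Ldhb_KO, so in Ldhb_KO Id3 lay on the other side of WT from Id1 and Id2. Id3 lies on chr4:136143497-136145755, plus strand. No gene of the GENCODE M21 annotation overlaps Id1, Id2 or Id3.

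Per length, Id1 was the most abundant of the 3 Id genes in every library, and the order of the other two turned. Id2 was at 0.691 of Id3 in SO, 1.86 times Id3 in Ldha_KO, 1.77 times in Ldhb_KO and 0.697 of it in WT. The sum of the 3 genes was 374 FPKM in SO, 458 in Ldha_KO, 474 in Ldhb_KO and 321 in WT. It was thus 1.17, 1.43 and 1.48 times WT in SO, Ldha_KO and Ldhb_KO. In that sum Id1 made up 52.7% in SO, 48.8% in Ldha_KO, 65.0% in Ldhb_KO and 56.8% in WT, and Id2 made up 19.3%, 33.3%, 22.4% and 17.8%. The larger sum of Ldha_KO therefore held mostly more Id2, and that of Ldhb_KO more Id1 and Id2 and less Id3.

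The libraries with the least Bmp4, the knockouts, had the largest Id sums. Id3 alone did not follow this, at 105 FPKM in SO, 82.0 in Ldha_KO, 59.8 in Ldhb_KO and 81.8 in WT. The Id sum was 6.85 times Bmp4 in SO, 22.6 times in Ldha_KO, 22.8 times in Ldhb_KO and 5.52 times in WT. The ratio was about equal in the knockouts, which shared a like level of Bmp4 and a like Id sum but divided that sum differently among the genes. In Ldha_KO and Ldhb_KO the Id sum was 1.43 and 1.48 times WT, and Bmp4 was at 0.349 and 0.358 of WT. The change in the ratio was thus more that of Bmp4 than of the Id sum. The members were chosen by these values, and the difference lies across the split between the knockout and unedited libraries. With 4 libraries no correlation was computed.

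**Figure D2:**
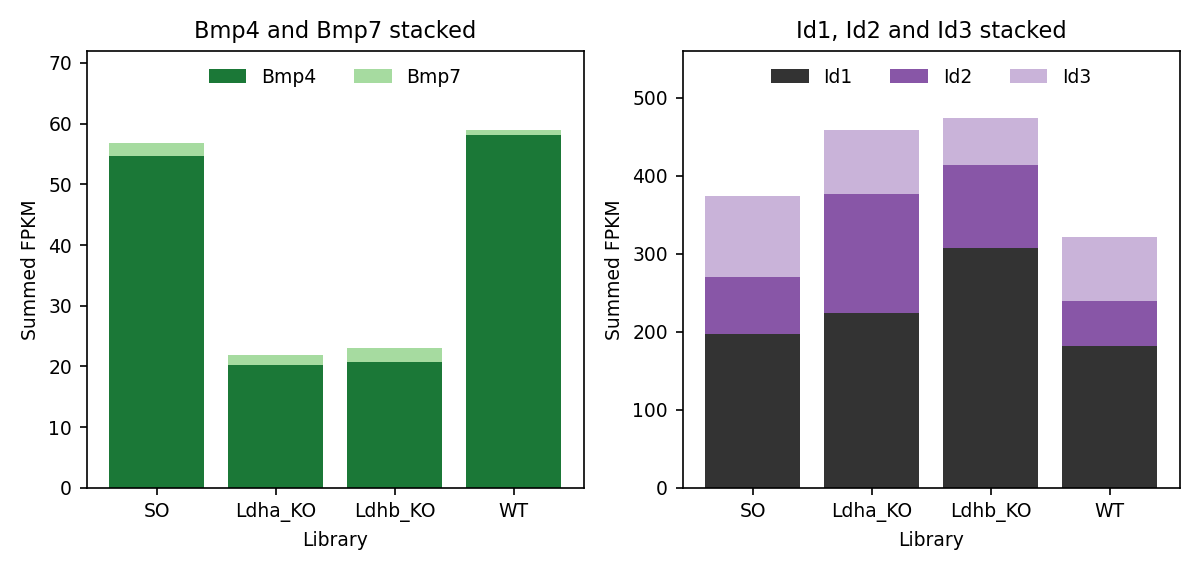
Summed FPKM of Bmp4 with Bmp7 (left) and of Id1, Id2 and Id3 (right), stacked, in SO, Ldha_KO, Ldhb_KO and WT, 1 library each. The ligand bars of the knockouts reach 21.9 and 23.1, against 59.0 in WT, and their Id bars reach 458 and 474, against 321 in WT.

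Set against all genes, few members moved far. All 9 passed the filter of 1. None was called in SO, where 2.69% of genes were called higher and 0.472% lower. In Ldha_KO 1 was higher (Id2), as were 2.65% of all genes, and 1 was lower (Bmp4), as were 1.06%. In Ldhb_KO 0 were higher, against 3.36% of all genes, and 1 was lower (Bmp4), as were 1.09%. Between the knockouts none was called, with 1.67% of genes higher and 1.54% lower. At 1.5-fold on the same scale, 4 members were higher in Ldhb_KO (Bmp7, Smad6, Id1 and Id2), where 12.6% of all genes were, and 1 was lower, where 7.2% were. At that fold Bmp7 alone was higher in SO (8.28% of genes) and none was lower (4.29%). It was passed upwards by Id2 alone in Ldha_KO (8.94%), and downwards there by Bmp4 alone (6.31%). Between the knockouts Smad6 alone was past it, lower in Ldha_KO (8.09%), and none was higher (6.51%). The median difference of the members was 0.18 in SO, 0.24 in Ldha_KO and 0.39 in Ldhb_KO, against -0.04, -0.03 and -0.02 over all genes kept. The 3 comparisons share the WT library. Smad1, Id1 and Id2 were above both unedited libraries in both knockouts, as were 16.6% of all genes, and Bmp4 was below both, as were 19.1%.

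Scaling each library to the sum of WT raised the median of all genes by 0.14 in SO, 0.12 in Ldha_KO and 0.10 in Ldhb_KO. Under it the small differences of Bmp4, Bmpr1a and Smad5 in SO, of Smad6 in Ldha_KO and of Smad5 in Ldhb_KO changed sign. The share of higher genes among all those called was 71.5% in Ldha_KO and 75.5% in Ldhb_KO, and 83.3% and 86.4% with each library scaled to the sum of WT. Median ratio scaling turned the same differences and raised the median in Ldhb_KO by 0.11. No called member changed direction under either scaling. Id2 in Ldha_KO then had the largest difference of the members, at 1.54 with sums scaled and 1.51 with median ratio scaling. Bmp4 was there at -1.34 and -1.37.

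**Figure D3:**
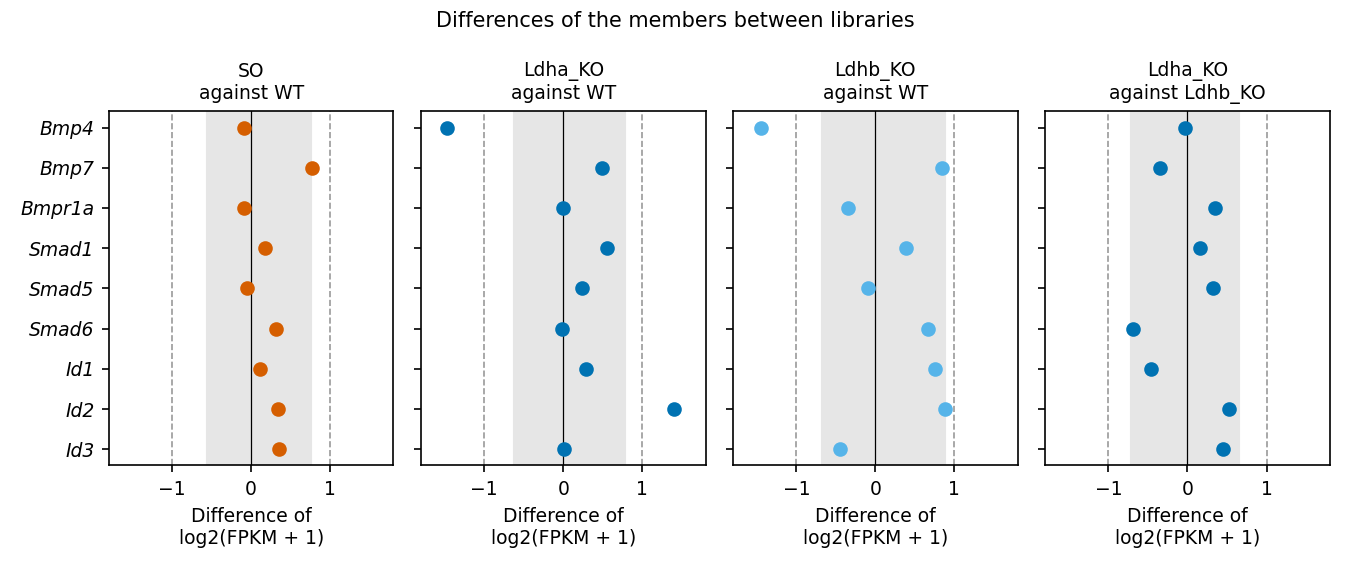
Difference of log2(FPKM + 1) of each member in the 4 comparisons, with dashed lines at 2-fold and a grey band from the 5th to the 95th percentile of all 13142 genes. Bmp4 lies beyond the band at -1.47 in Ldha_KO and -1.44 in Ldhb_KO, and Id2 beyond it at 1.41 in Ldha_KO.

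The wider pathway was read from lists of other genes, and some genes are on several of these lists. Over all 13142 genes, 0.472% to 3.36% were called in each direction of a comparison, which holds beside every list below. Of 15 other BMP family ligands 5 were kept and none was called in any comparison. The scale understates low genes. Bmp6, singled out for its ratios, was at 3.11 times WT in Ldha_KO and 2.52 times in Ldhb_KO. The ratio was also above 2 for Bmp8b in SO and Ldhb_KO (2.26 and 2.25) and Bmp1 in Ldhb_KO (2.31). The other 2 kept genes, Gdf3 and Bmp8a, lay below WT in all 3 comparisons with it. The most abundant was Gdf3, a ligand of early embryonic cells, at 54.9 FPKM in SO, 56.8 in Ldha_KO, 44.1 in Ldhb_KO and 87.1 in WT. WT stood highest, and the differences from WT were -0.66, -0.61 and -0.97. Bmp8b was at 2.74 FPKM in SO, 2.02 in Ldha_KO, 2.73 in Ldhb_KO and 1.21 in WT, and its value is uncertain because the close copy Bmp8a can share its reads. Bmp1, a protease that acts on matrix proteins and on a BMP antagonist rather than a true ligand, was at 1.52, 1.56, 1.96 and 0.847. The median difference of the 5 kept genes, Bmp1 among them, was 0.05 in SO, 0.45 in Ldha_KO and 0.62 in Ldhb_KO. Bmp1 and Bmp6 were below the filter in WT (0.847 and 0.542 FPKM) and were kept only through other libraries. The median is therefore tilted upwards and cannot be read as a shift of the ligands.

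Of 10 other receptors and co-receptors 9 were kept, and 1 was called. Eng (endoglin), a co-receptor for BMP and TGF-beta ligands, was at 39.2 FPKM in SO, 22.8 in Ldha_KO, 17.1 in Ldhb_KO and 11.9 in WT. SO was the highest and WT the lowest, with differences of 1.64, 0.88 and 0.48, so that SO alone was called. The type II receptors Acvr2b and Acvr2a, which also carry activin signals, were at 10.04 and 4.61 FPKM in SO, 7.50 and 6.60 in Ldha_KO, 7.24 and 4.61 in Ldhb_KO and 10.1 and 4.94 in WT. Bmpr2 and Acvr1, singled out after their values were seen because they are a main type II and type I receptor for BMPs, were at 4.01 and 3.88 FPKM in SO, 5.90 and 5.94 in Ldha_KO, 4.81 and 5.70 in Ldhb_KO and 5.78 and 4.09 in WT. Per length, Bmpr1a was thus higher than either of them in every library. The median difference of the list was -0.05 in SO, 0.03 in Ldha_KO and -0.00 in Ldhb_KO.

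Of 18 secreted antagonists and modulators 7 were kept. Fstl3, a follistatin-like protein that binds activins and some BMPs, was at 4.42 FPKM in SO, 2.74 in Ldha_KO, 6.43 in Ldhb_KO and 1.99 in WT, and it was called higher in Ldhb_KO with a difference of 1.31. Twsg1, which binds BMPs and chordin, was at 35.6, 33.2, 36.0 and 24.4 FPKM in the same order. Fstl1 was at 26.6, 31.2, 35.6 and 29.7. WT was lowest for Fstl3 and Twsg1 and not for Fstl1. The median difference was 0.08 in SO, 0.07 in Ldha_KO and 0.10 in Ldhb_KO. Fst was below the filter in Ldhb_KO and WT (0.519 and 0.995 FPKM) and was kept only through SO and Ldha_KO. The median therefore cannot be read as a shift of the antagonists.

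Of 20 other SMADs and intracellular regulators 19 were kept and 0 were called in any of the 4 comparisons. With 0.472% to 3.36% of all genes called in each direction, a count of 0 is not particular to this list. Zfp423, singled out for the largest difference from WT, was at 14.7 FPKM in SO, 16.4 in Ldha_KO, 13.2 in Ldhb_KO and 26.4 in WT. In Ldhb_KO it was at 0.499 of WT, and the difference of -0.95 was not called. The most abundant were Fkbp1a, which holds type I receptors inactive, at 245 FPKM in SO, 252 in Ldha_KO, 297 in Ldhb_KO and 331 in WT, the ubiquitin ligase Stub1 at 83.9, 79.1, 84.5 and 91.3, and the phosphatase Ppm1a at 39.9, 38.5, 42.6 and 44.9. WT was the highest for all 3 in the deposited values, by differences of -0.43 to -0.07, which changed sign for Stub1 in SO and for Stub1 and Ppm1a in Ldhb_KO with each library scaled to the sum of WT. Smad4, the common partner of the effector SMADs, and Smad7, the other inhibitory SMAD, were singled out after their values were seen. Smad4 was at 17.6 FPKM in SO, 20.3 in Ldha_KO, 18.5 in Ldhb_KO and 18.7 in WT, a narrow range. Smad7 was at 29.8, 18.8, 24.9 and 29.3, lowest in Ldha_KO with a difference of -0.62. It was thus the more abundant inhibitory SMAD per length and, unlike Smad6, did not have its highest level in Ldhb_KO. The median difference of the list was -0.15 in SO, -0.21 in Ldha_KO and -0.07 in Ldhb_KO. Pdzrn3, on this list, was kept only through Ldha_KO, at 1.18 FPKM.

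Of 23 other reported BMP targets 16 were kept. Tfap2c, a transcription factor of trophoblast and germ cells, was at 12.0 FPKM in SO, 11.5 in Ldha_KO, 26.1 in Ldhb_KO and 9.80 in WT. Ldhb_KO stood alone, with a difference of 1.33 from WT, and Ldha_KO was called lower than Ldhb_KO (-1.11). Dusp9, a phosphatase that restrains ERK signalling, was at 75.7 FPKM in SO, 145 in Ldha_KO, 131 in Ldhb_KO and 103 in WT, above WT in the knockouts by 0.50 and 0.35 and below it in SO by a difference of -0.43. Tbx3, a factor of self-renewal, was at 101, 94.2, 53.3 and 88.0, lowest in Ldhb_KO as Id3 was. Hes1, a repressor better known downstream of Notch, was at 32.4, 28.6, 35.2 and 40.2. Id4, the remaining Id gene, singled out after its values were seen, was at 2.01, 2.05, 1.35 and 1.26, far below the other Id genes. The median difference of the list was 0.23 in SO, 0.16 in Ldha_KO and 0.02 in Ldhb_KO. Hand1 was below the filter in Ldhb_KO and WT (0.690 and 0.862 FPKM), and Gata2 in SO (0.570). The median therefore cannot be read as a shift of the targets.

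The partners that Id proteins bind were also read. Of 18 E proteins and tissue bHLH factors 8 were kept. The E proteins Tcf3, Tcf12 and Tcf4 were at 21.9, 9.04 and 7.96 FPKM in SO, 20.2, 13.9 and 9.71 in Ldha_KO, 22.9, 10.9 and 9.65 in Ldhb_KO and 23.1, 10.1 and 9.87 in WT, and none was called. Id1 alone was several times more abundant than Tcf3, the highest of these, in each library. Neurod1, a neuronal bHLH factor, was at 8.06 FPKM in SO, 3.00 in Ldha_KO, 3.31 in Ldhb_KO and 1.56 in WT, and it was called higher in SO with a difference of 1.82. Ascl2 is a bHLH factor of trophoblast, singled out because it was called between the knockouts. It was at 5.52 FPKM in SO, 3.60 in Ldha_KO, 13.2 in Ldhb_KO and 6.77 in WT. Ldha_KO was called lower than Ldhb_KO, with a difference of -1.63. The differences from WT were -0.25 in SO, -0.76 in Ldha_KO and 0.87 in Ldhb_KO, none of them called. The median difference of the list from WT was -0.20 in SO, -0.10 in Ldha_KO and -0.02 in Ldhb_KO. Tal1 was kept only through WT (1.05 FPKM, against 0.215 in SO, 0.188 in Ldha_KO and 0.320 in Ldhb_KO). Hand1 was below the filter in Ldhb_KO and WT (0.690 and 0.862 FPKM). The median therefore cannot be read as a shift of these factors.

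**Figure D4:**
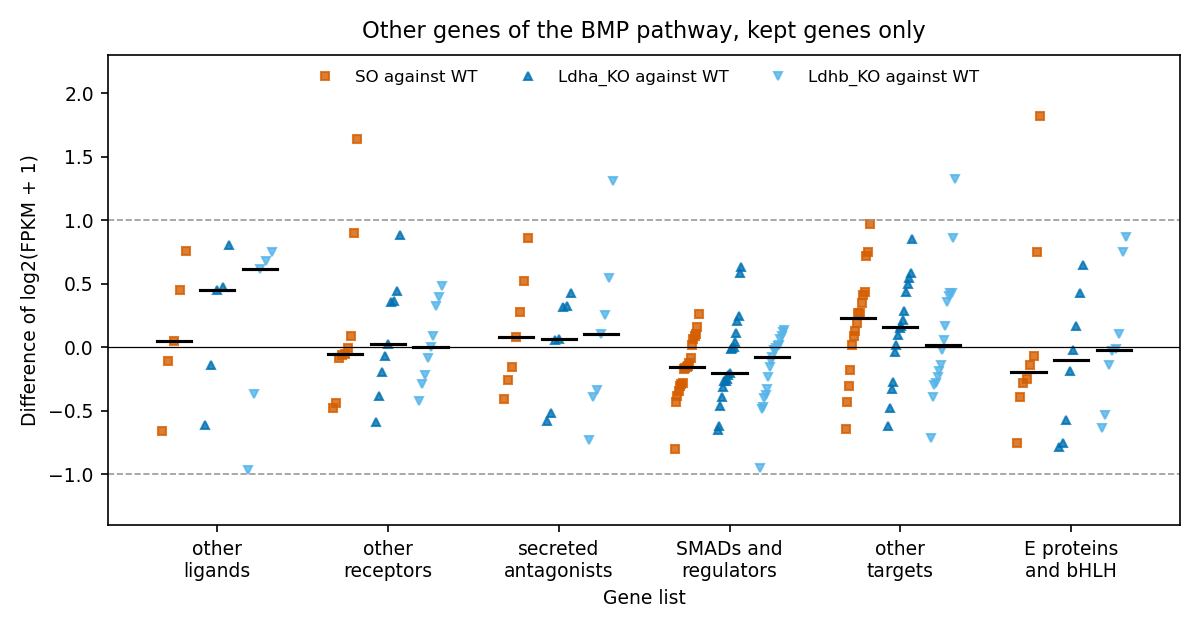
Difference of log2(FPKM + 1) from WT in SO, Ldha_KO and Ldhb_KO for the kept genes of 6 lists around the BMP pathway, each point 1 gene of a list, with black bars at list medians and dashed lines at 2-fold. Smad7, Bambi and Hand1 are on 2 of the lists and are plotted in both. The points past a line are Eng (1.64) and Neurod1 (1.82) in SO and Fstl3 (1.31) and Tfap2c (1.33) in Ldhb_KO.

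Markers of other cell types were read because BMP ligands and Id genes are also expressed there, and the markers named were singled out as called, abundant or defining genes. Of 13 fibroblast or feeder markers Dcn and Lum were listed at 0 in all 4 libraries, Col3a1 was at most 0.03 FPKM, and the sum was 207 FPKM in SO, 197 in Ldha_KO, 189 in Ldhb_KO and 261 in WT, most of it Vim (158, 153, 134 and 209). One of the markers, Pdgfrb, was called higher in SO and Ldhb_KO, and its difference in Ldha_KO was 0.96. Pdgfrb was at 3.35 FPKM in SO, 2.80 in Ldha_KO, 3.63 in Ldhb_KO and 0.949 in WT. It was thus below the filter in WT and was kept only through the other libraries. The 10 mesoderm markers summed to 15.2, 10.9, 8.42 and 8.38 FPKM in the same order with none called. The 11 trophectoderm markers summed to 99.1, 90.7, 121 and 59.3, with Krt19 called higher in all 3 comparisons with WT, Tfap2c also in Ldhb_KO, and the defining factor Cdx2 at 0.43 or less. Eomes, also on the mesoderm list, was at 9.22 FPKM in SO, 6.77 in Ldha_KO, 3.77 in Ldhb_KO and 4.84 in WT. The 12 primitive endoderm markers summed to 235, 216, 198 and 204, most of it Sparc (175, 155, 144 and 160), with Col4a1 and Col4a2 called higher in SO and Ldha_KO and the defining factors Gata6 and Sox17 below 1. Gata4, on the same list, was at 1.26 FPKM in SO, 0.923 in Ldha_KO, 1.21 in Ldhb_KO and 0.518 in WT. Sox7 was at 1.37, 0.892, 0.351 and 1.04 in the same order, and neither was called. The 10 neuroectoderm markers summed to 109, 129, 106 and 171, most of it Tubb3 (93.6, 116, 90.7 and 159), with Neurod1 called in SO and Sox1 at 0.88 or less. The trophectoderm sum was above WT in all 3 libraries. Much of that rise was Krt19, at 32.2 FPKM in SO, 20.4 in Ldha_KO, 34.1 in Ldhb_KO and 6.38 in WT. The part of these markers in the levels of Bmp4 and the Id genes was not tested.

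Genes with a pattern most like Bmp4 and Id1 were ranked by the Euclidean distance of their 3 differences from WT, among 9762 genes that reached 5 FPKM in at least 1 library, members left out. The closest to Bmp4 were Slc5a11 (0.21), Islr2 (0.37), Trim2 (0.48), Otx2 (0.49) and Irak3 (0.52). Otx2, a transcription factor of the primed state and the most abundant of these, was at 69.4 FPKM in SO, 25.3 in Ldha_KO, 28.4 in Ldhb_KO and 61.6 in WT, low in both knockouts as Bmp4 was. The closest to Id1 were Micall1 (0.07), Dkk3 (0.07), Tpi1 (0.09), Spats2 (0.09) and Mcu (0.09). Within a distance of 0.5 lay 775 genes for Id1 and 4 for Bmp4. A pattern like that of Id1 was thus common, and its closest genes are not particular to it. Tpi1, a glycolytic enzyme and the most abundant of these 5, was at 304 FPKM in SO, 352 in Ldha_KO, 504 in Ldhb_KO and 296 in WT. The distances rest on 3 differences that share the WT library. In all 3 Id1 lay between the 5th and 95th percentiles of all genes, while Bmp4 lay outside them in both knockouts. Fewer genes lie so far out, so the smaller count near Bmp4 follows from its large differences and is no further result.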

How the data were processed

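Polyadenylated RNA was sequenced in 4 libraries, grouped by their treatment label. The deposited tables give 1 value per gene symbol, read as FPKM made by the authors. That unit was taken from the values, which are not whole, sum to 471595 to 526316 and step by gene-dependent amounts, so RPKM could not be told apart. Per the submitters' processing notes, edgeR 3.26.8, HTSeq 0.11.2, SAMtools 1.9 and Bowtie2 2.3.4.3 were used with mouse build mm9. The sources used here give neither their roles nor the read depth.

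Differences of log2(FPKM + 1) were computed with pandas 2.3.3 over 13142 genes at 1 or more in at least 1 library. The calculation was tested on simulated data. Low values below 0.2 gave the relative library size behind the scaling, with ratios matched to whole reads within 0.2%. The members and the other gene lists, of which 2 entries were found by synonym, were chosen with earlier results of these data known. Named genes were the members, every listed pathway gene called against WT, the 3 most abundant kept genes of each pathway list, the 5 genes closest to Bmp4 and to Id1, Ldha and Ldhb, and the called, abundant or defining markers of other cell types. Other genes are said to be singled out, or are named for their place at the filter. Genome positions are from GENCODE M21 and RefSeq on GRCm38, not from the files. Alternatives were a pseudocount of 0.1, no filter, a filter of 5, 2 scalings and a 1.5-fold rule.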

Additional observations from a re-analysis of the deposited data

How the results depend on the processing

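No library could be left out and no paired analysis was possible because each group has 1 library. The differences of the members kept their direction where called, under all 6 alternatives, and Bmp4 stayed lower in both knockouts and Id2 higher in Ldha_KO. Calls gained were Bmp7 in SO and Ldhb_KO with a pseudocount of 0.1, Id2 in Ldhb_KO under both scalings, and 6 under the 1.5-fold rule. A filter of 5 removed Bmp7.

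Counts over all genes moved more, higher and lower in turn. With a pseudocount of 0.1 they were 808 and 182 in SO, 868 and 321 in Ldha_KO, 1141 and 311 in Ldhb_KO and 419 and 574 between the knockouts. At 1.5-fold they were 1088 and 564, 1175 and 829, 1652 and 946, and 856 and 1063. With a filter of 5 the counts were 234 and 40 in SO, with 262 higher in Ldhb_KO, and median ratio scaling left 90 lower in Ldhb_KO. The main counts were 353 and 62, 348 and 139, 441 and 143, and 219 and 202. A smaller pseudocount and a smaller fold call more genes by their construction, and a filter of 5 tests fewer; the cause of the count with median ratio scaling was not tested. Median ratio scaling raised the share of higher calls in Ldhb_KO to 87.2%. Bmp7 had the lowest FPKM of the members, and the depth behind it is unknown.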
